A study of Mus musculus with 12 samples.

Results

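Transcripts of fat oxidation that depend on the peroxisome proliferator-activated receptors (PPARs) were followed in intestinal tissue of mice that lack ieCtnnb1, an intestinal enhancer of the β-catenin gene Ctnnb1. The 7 members, Ppara, Ppargc1a, Cpt1a, Acadm, Hadha, Pdk4 and Angptl4, were selected by name from the 54532 genes listed in each of the 2 deposited tables, and each was found in both. RNA-seq covered 12 libraries in 4 groups of 3, all from untreated adult mice on a C57BL/6 background. Small intestine crypts came from mice labelled "Wild type" or "ieCtnnb1KO". Colon tumors came from mice labelled "APCmin/+" or "APCmin/+;ieCtnnb1KO", aged 5 months, and all 6 of these libraries carry the Apc Min allele. The enhancer deletion was made by CRISPR/Cas9 and is homozygous and germline, so that it is present in every cell of the animal and from the start of life. The Min allele is also germline, and both tissues were measured in bulk. Libraries held 14457896 to 16156712 fragments on genes.

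The enhancer itself is not listed in the tables, and its target gene was used to check the labels. Ctnnb1 (ENSMUSG00000006932, chr9:120929216-120960507, plus strand) measured 121, 134 and 123 FPKM in wild-type crypts and 102, 104 and 105 in knockout crypts. The groups did not overlap, and the knockout was lower by a log2 difference of −0.28 (SE 0.12, limma p = 0.0510, adjusted p = 0.849, exact permutation p = 0.1). In tumors Ctnnb1 measured 299, 363 and 358 FPKM without the deletion and 279, 248 and 250 with it. These groups were also apart, at a log2 difference of −0.39 (SE 0.13, limma p = 0.0204, adjusted p = 0.303, exact permutation p = 0.1). Every library was thus on the side its genotype label implies, although neither comparison passed the adjusted threshold. Of the exon bases of Ctnnb1, 14.6% are shared with Ulk4 on the opposite strand, which averaged 0.0570 FPKM in crypts and 0.371 in tumors. The male-specific transcript Ddx3y was present in all 6 crypt libraries and Xist was near 0 there, whereas replicate 3 of both tumor groups expressed Xist (114 FPKM without the deletion, 61.4 with it) and little or no Ddx3y (0 and 0.0247), so that each tumor group held 1 female and 2 male libraries.

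PPARs are nuclear receptors that bind fatty acids, pair with retinoid X receptors on DNA and switch on genes for taking up and burning fat. Fatty acids are activated with coenzyme A, carried into mitochondria on carnitine and shortened step by step, and in fasting liver the resulting acetyl groups feed the synthesis of ketone bodies. In the intestine, absorptive cells take up dietary fat, and PPARs respond there to dietary and cellular fatty acids. Among the members, Ppara encodes the receptor, Ppargc1a a coactivator of mitochondrial genes, Cpt1a the enzyme that commits long-chain fatty acids to mitochondria, and Acadm and Hadha enzymes of β-oxidation. Pdk4 encodes a kinase that restrains pyruvate oxidation and Angptl4 a secreted inhibitor of lipoprotein lipase. None of the 7 is itself an enzyme of ketone body synthesis, although the label names ketogenesis. A ketone body list enters the totals over the pathway, and 2 of its genes, Acat1 and Oxct1, are described singly.

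In crypts, the β-oxidation enzymes Acadm and Hadha were higher in all 3 knockout libraries than in all 3 wild-type libraries, whereas the other 5 members, the carnitine enzyme Cpt1a among them, had overlapping groups. Acadm averaged 33.8 ± 2.27 FPKM in 3 knockout libraries against 26.2 ± 2.86 in 3 wild-type libraries, a ratio of 1.29, and Hadha averaged 29.8 ± 0.806 against 25.1 ± 2.30, a ratio of 1.19. The other members had knockout to wild-type ratios of the means from 1.08 (Ppargc1a) to 2.18 (Pdk4), with groups that overlapped. No member passed an adjusted p under 0.05. Across the 14176 genes tested in crypts the same holds: 0 (0%) passed by limma, which gave 829 at an unadjusted p under 0.05, and limma with voom on recovered fragments also gave 0 at the adjusted threshold. At an unadjusted p under 0.05, 3.48% of all tested genes were higher and 2.36% lower, and 6.79% were higher and 5.15% lower with groups that did not overlap. Among the 7 members, 1 (Acadm) was higher at an unadjusted p under 0.05 and 2 (Acadm and Hadha, 28.6%) were higher without overlap. All 7 log2 differences were above 0, with a median of 0.23, against 52.8% of all tested genes above 0 and a median of 0.01 over all of them. Each comparison sets 3 libraries against 3, the p-values measure the spread between these samples, and the smallest p the exact permutation test can give is 0.1.

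The regulators among the members, Ppara and Ppargc1a, were low to moderate in crypts. In the wider list of receptors and coregulators, Esrra averaged 75.6 FPKM over all crypt libraries, Rxra 19.3 and Ppard 17.8, whereas Pparg averaged 4.24. Ppara (ENSMUSG00000022383, chr15:85734983-85802819, plus strand) measured 3.67, 3.21 and 5.55 FPKM in wild type and 4.24, 4.85 and 5.40 in knockout. The highest and the lowest values were both in wild-type libraries, replicates 3 and 2, and the groups overlapped (log2 difference 0.23, SE 0.20, limma p = 0.304, adjusted p = 0.909, exact permutation p = 0.4). That difference was 0.08 without wild-type replicate 2 and 0.43 without wild-type replicate 3. Ppargc1a (ENSMUSG00000029167, chr5:51454250-51567726, minus strand) measured 4.58, 4.99 and 6.06 FPKM in wild type and 5.69, 3.95 and 7.23 in knockout. Here knockout replicate 3 was the highest and knockout replicate 2 the lowest library, with a log2 difference of 0.07 (SE 0.22, 95% interval −0.44 to 0.59, limma p = 0.748, adjusted p = 0.981, exact permutation p = 0.9). Leaving out single libraries moved that difference between −0.11 and 0.29, and its sign turned without knockout replicate 3 and also without wild-type replicate 1 (−0.00723).

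Cpt1a, the entry point of the carnitine shuttle, was abundant and variable. Cpt1a (ENSMUSG00000024900, chr19:3323301-3385732, plus strand) measured 35.6, 27.7 and 28.5 FPKM in wild type and 33.3, 43.2 and 25.4 in knockout. Knockout replicate 2 was the highest and knockout replicate 3 the lowest of the 6, the groups overlapped, and the log2 difference was 0.12 (SE 0.21, limma p = 0.575, adjusted p = 0.957, exact permutation p = 0.7). Without knockout replicate 2 it was −0.06. Its partner on the inner membrane, Cpt2, which returns the acyl group to coenzyme A in the matrix, measured 45.9, 46.8 and 30.8 FPKM in wild type and 59.1, 56.0 and 59.6 in knockout. All 3 knockout values of Cpt2 were above all wild-type values, and wild-type replicate 3 was the lowest (log2 difference 0.52, limma p = 0.0232, adjusted p = 0.806, exact permutation p = 0.1). Over left-out libraries the Cpt2 difference ran from 0.33 to 0.62. Crat, the matrix enzyme that exchanges short acyl groups with carnitine, measured 11.4, 12.4 and 15.5 FPKM against 21.6, 14.7 and 22.3 in knockout, with a small overlap between wild-type replicate 3 and knockout replicate 2 (log2 difference 0.55, limma p = 0.0278, adjusted p = 0.806, exact permutation p = 0.2).

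The β-oxidation enzymes were the members with separate groups in crypts. Acadm, the medium-chain acyl-CoA dehydrogenase (ENSMUSG00000062908, chr3:153922357-153944632, minus strand), measured 23.0, 27.0 and 28.6 FPKM in wild type and 35.8, 34.4 and 31.3 in knockout. All 3 knockout libraries lay above all 3 wild-type libraries, at a log2 difference of 0.37 (SE 0.13, 95% interval 0.07 to 0.67, limma p = 0.0239, adjusted p = 0.806, exact permutation p = 0.1). Over the alternatives run, this difference ranged from 0.28 to 0.51 and its adjusted p from 0.543 to 1. Hadha, which encodes the hydratase and dehydrogenase subunit of the mitochondrial trifunctional protein (ENSMUSG00000025745, chr5:30118304-30155162, minus strand), measured 26.0, 22.5 and 26.8 FPKM in wild type and 30.8, 29.5 and 29.2 in knockout. The groups were apart, the knockout values were close together, and wild-type replicate 2 was the lowest library (log2 difference 0.25, SE 0.12, 95% interval −0.02 to 0.52, limma p = 0.0683, adjusted p = 0.857, exact permutation p = 0.1). Its partner subunit Hadhb, the thiolase subunit of the same complex, also had groups apart, with 19.6, 17.6 and 16.1 FPKM in wild type and 22.9, 21.6 and 20.1 in knockout (log2 difference 0.27, limma p = 0.0591, adjusted p = 0.849, exact permutation p = 0.1).

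Pdk4 and Angptl4, genes that fasting and fatty acids are known to induce through PPARs, were dominated by 1 crypt library. Pdk4 (ENSMUSG00000019577, chr6:5483351-5496309, minus strand) measured 0.313, 0.484 and 0.654 FPKM in wild type and 0.350, 0.663 and 2.15 in knockout, which corresponds to 17, 26 and 36 fragments against 20, 39 and 106. Knockout replicate 3 alone was high, the other knockout libraries lay in or next to the wild-type range, and the log2 difference of 0.50 (SE 0.43, limma p = 0.279, adjusted p = 0.907, exact permutation p = 0.4) was 0.03 without that library. Angptl4 (ENSMUSG00000002289, chr17:33773750-33781575, minus strand) measured 2.12, 6.89 and 4.21 FPKM in wild type and 1.44, 3.69 and 14.8 in knockout. Knockout libraries held both its highest value (replicate 3) and its lowest (replicate 1), and the log2 difference of 0.15 (SE 0.74, 95% interval −1.6 to 1.90, limma p = 0.847, adjusted p = 0.991, exact permutation p = 1) was −0.66 without knockout replicate 3 and −0.24 without wild-type replicate 1. The same library was the highest for the glucocorticoid-inducible gene Sgk1, at 13.5, 38.2 and 14.1 FPKM in wild type and 5.24, 20.1 and 66.5 in knockout. Over the list of 9 glucocorticoid and fasting response genes, 8 were tested in crypts, 4 were above 0, the median log2 difference was −0.08, and summed levels were 91.7, 114 and 75.4 FPKM in wild type and 46.9, 98.7 and 161 in knockout, with Sgk1 the most abundant. Their part in the values of Pdk4 and Angptl4 was not tested.

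By FPKM, which is scaled to gene length, the crypt order over all 6 libraries was Cpt1a (mean 32.3), Acadm (30.0), Hadha (27.5), Angptl4 (5.52), Ppargc1a (5.42), Ppara (4.49) and Pdk4 (0.769). The first 3 lay in overlapping ranges, as did Angptl4, Ppargc1a and Ppara, so the neighbours within these 2 sets do not differ beyond their spread. Pdk4 was below every other member in each crypt library.

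**Figure D1:**
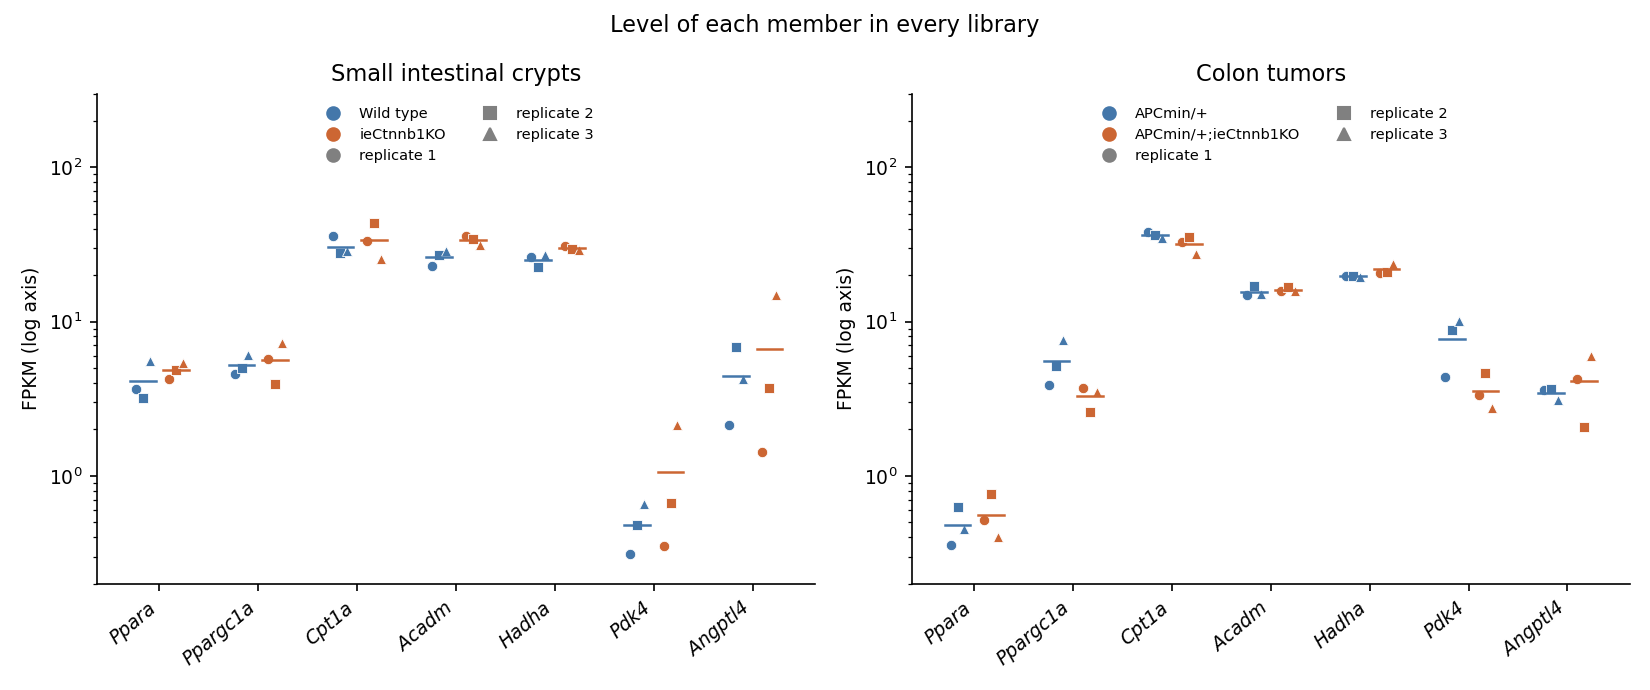
RNA level of the 7 members in each library, in FPKM on a log axis. Crypts and tumors are drawn in separate panels because their tables were normalized separately. Marker shapes are replicates and bars are group means of 3 libraries.

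The wider pathway was followed in crypts through 8 lists with 69 genes, of which 64 were tested. Of these, 52 (81.2%) had a log2 difference above 0, with a median of 0.27, or 0.26 above the median of all tested genes. At an unadjusted p under 0.05, 13 were higher and 0 lower, beside 3.48% and 2.36% of all genes. Without overlap between groups 17 (26.6%) were higher, beside 6.79% of all genes. The count of 13 was 5 without knockout replicate 1, 6 without wild-type replicate 2 and 24 without wild-type replicate 3, and no pathway gene passed the adjusted threshold in any of these. Leaving the members out, 57 genes were tested, with 45 above 0 and a median of 0.29. Scaling every library to the same sum of FPKM shifts the median of all crypt genes from 0.01 to 0.14. Relative to that shift the pathway median was 0.27 higher. Counted against 0 at that scaling, 25 pathway genes were higher at an unadjusted p under 0.05. Of all 14176 genes 734 were higher there, against 494 as reported. Rescaling without the 50 highest genes gave 6 pathway genes, beside 285 of all genes, and quantile normalization 8, beside 370.

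Mitochondrial β-oxidation is the longest of the pathway lists. All 15 of its genes were tested, 13 were above 0 with a median of 0.27, 7 were higher at an unadjusted p under 0.05 and 9 (60%) were higher without overlap. Of all genes tested in crypts, 3.48% were higher at that p and 6.79% without overlap. Their summed level was 468, 471 and 491 FPKM in wild type and 622, 587 and 551 in knockout, with all knockout libraries above all wild-type libraries. Acaa2, the thiolase that releases acetyl-CoA in the last step, measured 65.7, 63.2 and 55.1 FPKM in wild type and 114, 99.1 and 87.5 in knockout. It had the smallest p of the pathway (log2 difference 0.70, SE 0.15, 95% interval 0.35 to 1.05, limma p = 0.00208, adjusted p = 0.728, exact permutation p = 0.1). Echs1, the short-chain enoyl-CoA hydratase, measured 11.3, 12.5 and 11.4 FPKM against 16.3, 15.4 and 16.1 (log2 difference 0.43, SE 0.10, limma p = 0.00453, adjusted p = 0.740, exact permutation p = 0.1), with tight groups on both sides. Etfa and Etfdh, which pass electrons from the acyl-CoA dehydrogenases to the respiratory chain, were also apart. Etfa measured 65.3, 58.6 and 68.7 FPKM against 85.7, 84.3 and 76.2 (log2 difference 0.35, limma p = 0.0249, adjusted p = 0.806, exact permutation p = 0.1), and Etfdh 10.4, 9.88 and 10.4 against 14.0, 12.9 and 12.4 (log2 difference 0.34, limma p = 0.0153, adjusted p = 0.797, exact permutation p = 0.1).

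The other catabolic lists ran in the same direction in crypts. Their counts stand beside 3.48% of all tested genes higher at an unadjusted p under 0.05 and 6.79% higher without overlap. The carnitine shuttle had 5 of 6 genes tested, all 5 above 0 with a median of 0.20, 2 higher at an unadjusted p under 0.05 and 1 without overlap, and summed levels of 113, 111 and 99.9 FPKM in wild type and 140, 139 and 134 in knockout. Its untested gene Cpt1b, the muscle counterpart of Cpt1a, was below the filter and lower without overlap, at 0.115, 0.0970 and 0.454 FPKM in wild type and 0.0729, 0.0177 and 0.0211 in knockout, or 6, 5 and 24 fragments against 4, 1 and 1 (exact permutation p = 0.1). Acat1, a mitochondrial thiolase used in making and breaking ketone bodies, had separate groups, at 33.5, 27.5 and 30.2 FPKM in wild type and 43.8, 39.8 and 39.9 in knockout (log2 difference 0.43, SE 0.12, limma p = 0.00934, adjusted p = 0.769, exact permutation p = 0.1). Peroxisomal oxidation had 8 of 9 genes tested, all 8 above 0 with a median of 0.36, 2 higher at an unadjusted p under 0.05 and 2 higher without overlap. Its sums, 238, 279 and 315 FPKM in wild type and 381, 297 and 386 in knockout, overlapped. Abcd3, a peroxisomal importer of acyl-CoA, measured 28.3, 32.5 and 29.1 FPKM against 42.6, 36.7 and 41.8 (log2 difference 0.42, limma p = 0.00976, adjusted p = 0.771, exact permutation p = 0.1), and Ech1, a dienoyl-CoA isomerase, 52.2, 49.3 and 52.0 against 64.5, 63.1 and 63.5 (log2 difference 0.31, limma p = 0.0210, adjusted p = 0.800, exact permutation p = 0.1).

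The remaining lists were regulators, uptake, fuel choice and microsomal oxidation. Their counts stand beside the same 3.48% and 6.79% of all tested crypt genes. Of 12 receptors and coregulators 7 were above 0, with a median of 0.04, 0 at an unadjusted p under 0.05 in either direction and 1 (Lpin1) higher without overlap. Fatty acid uptake, binding and activation had 7 of 9 genes above 0 and a median of 0.43, with 1 (Acsl5) higher at an unadjusted p under 0.05, and sums of 1766, 2766 and 4725 FPKM in wild type and 4367, 3209 and 4938 in knockout that overlapped. Fuel choice and lipid targets, the list with Pdk4 and Angptl4, had 7 of 8 genes tested, 6 above 0, a median of 0.23 and 0 at an unadjusted p under 0.05. Microsomal oxidation had 3 of 5 genes tested, 2 above 0, a median of 0.12 and none at an unadjusted p under 0.05, and its low sums, 7.17, 6.20 and 7.14 FPKM in wild type and 10.4, 8.78 and 12.5 in knockout, did not overlap. Of its genes, Cyp4a14 was at 0 in every crypt library, and Cyp4a10, below the filter and not tested by limma, measured 0.0306, 0.155 and 0.151 FPKM in wild type and 0.845, 0.255 and 0.878 in knockout, with no overlap (exact permutation p = 0.1).

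Marker lists show what the crypt libraries contained. Enterocyte markers, 10 of 10 tested and 10 above 0 with a median of 0.49, summed to 3705, 5306 and 9907 FPKM in wild type and 7777, 5801 and 9146 in knockout, led by Fabp2, so that absorptive cell RNA was abundant in the crypt preparations and overlapped between genotypes. Of these, Mttp had the smallest p, with 154, 180 and 164 FPKM against 257, 188 and 284 (log2 difference 0.53, limma p = 0.0254, adjusted p = 0.806, exact permutation p = 0.1). The peroxisomal sums were lowest in wild-type replicates 1 and 2, and highest in knockout replicate 3, whereas the uptake list shares its most abundant genes, Fabp1 and Fabp2, with the enterocyte list. The mean log2 level of the enterocyte markers was 7.68, 8.0 and 8.80 in wild type and 8.66, 8.12 and 8.93 in knockout. That of mitochondrial β-oxidation was 4.58, 4.57 and 4.72 in wild type and 4.95, 4.91 and 4.80 in knockout. In bulk tissue, fewer cells of a type and less RNA per cell cannot be told apart, and the part of the enterocyte markers in the pathway values was not tested. Epithelium markers (6 of 6 tested, 3 above 0, median −0.01) summed to 3359, 3753 and 3641 FPKM against 3558, 4474 and 3659, led by Krt8. Colonocyte markers (4 of 6 tested, 2 above 0, with Car4 and Slc26a3 higher at an unadjusted p under 0.05) summed to 957, 1448 and 1584 FPKM against 963, 1139 and 1490, led by Guca2a.

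Markers of other tissues ranged widely in crypts. Adipocyte markers summed to 5.94, 6.55 and 11.1 FPKM in wild type and 9.66, 5.89 and 17.1 in knockout, with 1 of 7 tested, Cidec the most abundant, and Adipoq, Plin1, Lep and Retn at 0. Smooth muscle markers, 0 of 6 tested, stayed at sums from 0.18 to 0.42 FPKM. Fibroblast markers (1 of 5 tested, below 0) summed to 5.18, 2.83 and 4.26 FPKM against 1.36, 4.17 and 2.26, led by Dcn, and endothelium markers (2 of 5 tested, both below 0) to 2.68, 2.67 and 2.66 against 2.29, 2.06 and 2.39, led by Esam. Immune markers (5 of 8 tested, 2 above 0, median −0.11) summed to 22.1, 20.7 and 23.8 FPKM against 20.0, 23.0 and 19.0, led by Cd79a, with S100a8 at 0. Liver markers (2 of 4 tested, 1 above 0) summed to 77.0, 99.8 and 226 FPKM against 170, 112 and 210, led by Apoc3 (mean 143 FPKM over all crypt libraries). Their sums put the crypt libraries in the same order as the enterocyte sums, so they are not read as liver tissue. A list of 12 hypoxia response genes, 11 tested with 7 above 0, a median of 0.20 and 2 (Ldha and Pgk1) higher at an unadjusted p under 0.05, had sums of 482, 439 and 476 FPKM in wild type and 572, 590 and 635 in knockout that did not overlap, led by Ldha, and its part in the pathway values was not tested.

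In colon tumors the members went different ways. The coactivator Ppargc1a and the kinase Pdk4 were lower with the deletion, at 3.27 ± 0.586 FPKM against 5.53 ± 1.87 (ratio 0.592) and 3.57 ± 0.970 against 7.72 ± 3.0 (ratio 0.462), each over 3 libraries a group. Hadha was slightly higher, at 21.8 ± 1.6 FPKM against 19.6 ± 0.136 (ratio 1.11), and Acadm was nearly level, at 16.1 ± 0.629 against 15.6 ± 1.12 (ratio 1.03). No member passed an adjusted p under 0.05, and of 16743 genes tested in tumors 0 (0%) passed by limma, 2421 had an unadjusted p under 0.05, and limma with voom also gave 0 at the adjusted threshold. At that unadjusted level 8.46% of all tested genes were higher and 6.0% lower, and 11.4% were higher and 10.6% lower without overlap. Among the 7 members 2 were lower (Ppargc1a and Pdk4) and 0 higher at an unadjusted p under 0.05, and 1 was higher (Hadha) and 1 lower (Ppargc1a) without overlap, 14.3% each, close to the shares over all genes. Log2 differences were above 0 for 4 members and below 0 for 3, with a median of 0.05, beside 51.3% of all tested genes above 0 and a median of 0.01 over all of them.

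Among the members, the receptor gene Ppara was nearly silent in tumors while the coactivator gene Ppargc1a was expressed. The other PPAR genes were expressed there, with means over all tumor libraries of 13.1 FPKM for Ppard and 8.62 for Pparg. Ppara measured 0.354, 0.632 and 0.453 FPKM in tumors without the deletion and 0.518, 0.764 and 0.401 with it, or 22, 40 and 26 fragments against 32, 47 and 24, which is close to the filter of 0.5. The groups overlapped (log2 difference 0.11, SE 0.23, limma p = 0.647, adjusted p = 0.842, exact permutation p = 0.6), and leaving out single libraries moved the difference between −0.02 and 0.22. Ppargc1a measured 3.86, 5.17 and 7.56 FPKM without the deletion and 3.72, 2.61 and 3.48 with it. All 3 knockout tumors lay below all 3 ApcMin tumors, by a small margin between ApcMin replicate 1 and knockout replicate 1, and ApcMin replicate 3 was the highest. The log2 difference was −0.64 (SE 0.24, 95% interval −1.22 to −0.06, limma p = 0.0346, adjusted p = 0.325, exact permutation p = 0.1). Without ApcMin replicate 3 it was −0.41, and over all alternatives the adjusted p ranged from 0.198 to 0.606.

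The 3 mitochondrial enzymes differed little between tumor groups. Cpt1a measured 38.2, 36.6 and 35.0 FPKM without the deletion and 33.0, 35.2 and 27.4 with it. Knockout replicate 3 was the lowest, and knockout replicate 2 lay just above the lowest ApcMin tumor (log2 difference −0.20, SE 0.11, limma p = 0.112, adjusted p = 0.427, exact permutation p = 0.2). Without knockout replicate 3 the Cpt1a difference was −0.099. Acadm measured 14.9, 16.9 and 15.0 FPKM against 15.8, 16.8 and 15.7, with intermixed groups. Its log2 difference of 0.05 (SE 0.09, 95% interval −0.16 to 0.25, limma p = 0.601, adjusted p = 0.814, exact permutation p = 0.6) was −0.0602 at the same sum of FPKM, −0.0611 without the 50 highest genes and −0.0137 after quantile normalization. These scalings also moved the median of all tumor genes, to −0.0903, −0.0911 and −0.0153, so that Acadm stayed above it in each. Hadha measured 19.6, 19.8 and 19.5 FPKM against 20.7, 21.0 and 23.6, with knockout replicate 3 the highest. The groups were apart, at a log2 difference of 0.14 (SE 0.08, 95% interval −0.05 to 0.34, limma p = 0.128, adjusted p = 0.446, exact permutation p = 0.1) that was 0.03 at the same sum of FPKM and 0.08 without knockout replicate 3.

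Pdk4 was expressed in all tumors. It measured 4.35, 8.77 and 10.1 FPKM without the deletion and 3.33, 4.63 and 2.74 with it. Knockout replicate 2 lay above ApcMin replicate 1, and otherwise all knockout values were below all ApcMin values. The log2 difference was −0.97 (SE 0.32, 95% interval −1.73 to −0.20, limma p = 0.0207, adjusted p = 0.303, exact permutation p = 0.2). Over the alternatives run, it ranged from −1.31 (without ApcMin replicate 1) to −0.75 (without ApcMin replicate 3), with adjusted p from 0.145 to 0.599. Angptl4 measured 3.63, 3.65 and 3.11 FPKM without the deletion and 4.24, 2.09 and 5.95 with it. Knockout libraries held its highest and lowest values, and the log2 difference of 0.12 (SE 0.32, limma p = 0.724, adjusted p = 0.882, exact permutation p = 0.8) ran from −0.18 without knockout replicate 3 to 0.48 without knockout replicate 2.

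Within tumors the order over all 6 libraries was Cpt1a (mean 34.2), Hadha (20.7), Acadm (15.9), Pdk4 (5.65), Ppargc1a (4.40), Angptl4 (3.78) and Ppara (0.521). Cpt1a was above Hadha and Hadha above Acadm in every library. Pdk4, Ppargc1a and Angptl4 had overlapping ranges and do not differ beyond their spread, and Ppara was lowest in each tumor library. Levels are not compared between the tissues, because the tables were normalized separately.

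Of the 69 pathway genes 63 were tested in tumors, and 39 (61.9%) had a log2 difference above 0, with a median of 0.10, or 0.09 above that of all genes, and the median turned to −0.0145 at the same sum of FPKM and to −0.0153 without the 50 highest genes. At an unadjusted p under 0.05, 6 were higher and 3 (Ppargc1a, Pdk4 and Lpin1) lower, beside 8.46% and 6.0% of all genes, and without overlap 12 were higher (19.0%) and 3 lower (4.76%), beside 11.4% and 10.6% of all genes. The 6 became 3 without ApcMin replicate 3 or without knockout replicate 1 and 13 without ApcMin replicate 1, and the 3 lower genes became 0 without ApcMin replicate 2 and 1 without ApcMin replicate 3 or knockout replicate 3. Scaling to the same sum shifts the median of all tumor genes from 0.01 to −0.09. Relative to that shift the pathway median was 0.08 higher. Counted against 0 at that scaling, 2 pathway genes lay above and 6 below with an unadjusted p under 0.05. Of all 16743 genes 731 lay above and 1785 below there, against 1417 and 1004 as reported. Without the members 56 genes were tested, 35 above 0 with a median of 0.11.

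Receptors and coregulators with small p in tumors went in both directions. Of 12 such genes 6 were above 0 with a median of 0.03. At an unadjusted p under 0.05, 2 were higher and 2 lower, beside 8.46% and 6.0% of all genes. The same numbers were apart (16.7% each, beside 11.4% and 10.6% of all genes), and enrichment was not tested. Esrra, an orphan receptor that works with PGC-1α on mitochondrial genes, measured 44.8, 39.3 and 33.9 FPKM without the deletion and 52.1, 48.9 and 54.8 with it (log2 difference 0.40, SE 0.12, limma p = 0.0121, adjusted p = 0.286, exact permutation p = 0.1). Ppard, which encodes the widely expressed PPARδ, measured 12.9, 11.6 and 11.1 FPKM against 14.7, 14.8 and 13.5, with no overlap (log2 difference 0.26, limma p = 0.0260, adjusted p = 0.313, exact permutation p = 0.1). Lpin1, a phosphatidate phosphatase that also acts as a coactivator, was lower in all 3 knockout tumors, at 1.87, 1.82 and 1.53 FPKM against 2.43, 2.41 and 2.12 (log2 difference −0.33, limma p = 0.0443, adjusted p = 0.339, exact permutation p = 0.1). Creb3l3, a membrane-bound transcription factor of lipid genes listed with fuel choice, measured 0.942, 0.643 and 0.887 FPKM against 1.32, 1.74 and 1.53 (log2 difference 0.62, SE 0.18, limma p = 0.0109, adjusted p = 0.282, exact permutation p = 0.1).

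The enzyme lists of tumors did not share 1 direction. Of the mitochondrial β-oxidation genes 12 of 15 were above 0 with a median of 0.10, 1 was higher at an unadjusted p under 0.05 and 5 were higher without overlap (33.3%, beside 11.4% of all genes), and summed levels of 356, 344 and 321 FPKM without the deletion and 376, 346 and 365 with it overlapped. The 1 gene was Decr1, an auxiliary reductase for unsaturated fatty acids, with 7.80, 7.09 and 7.27 FPKM against 8.46, 9.18 and 8.66 (log2 difference 0.23, limma p = 0.0342, adjusted p = 0.325, exact permutation p = 0.1). Acadvl, the very long-chain dehydrogenase, measured 17.1, 16.9 and 15.5 FPKM against 19.3, 19.8 and 17.9 (log2 difference 0.20, limma p = 0.0504, adjusted p = 0.346, exact permutation p = 0.1), but 42.9% of its exon bases are shared with Dvl2 on the opposite strand, so its value is uncertain. The carnitine shuttle had 1 of 5 tested genes above 0, a median of −0.12, none at an unadjusted p under 0.05, and sums of 108, 105 and 108 FPKM that lay above 95.5, 98.7 and 102 in knockout. Oxct1, which activates acetoacetate for ketone use, had the smallest p of the pathway in tumors, with 29.8, 31.5 and 30.8 FPKM against 37.1, 37.3 and 35.8 (log2 difference 0.26, SE 0.07, 95% interval 0.08 to 0.43, limma p = 0.00979, adjusted p = 0.279, exact permutation p = 0.1).

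In the remaining tumor lists, peroxisomal genes were above 0 in 6 of 8 cases with a median of 0.14 and none at an unadjusted p under 0.05, and summed to 146, 139 and 146 FPKM against 150, 156 and 150. Uptake, binding and activation had 3 of 8 tested genes above 0 and a median of −0.11, and the 1 gene at an unadjusted p under 0.05 was Slc27a4, a fatty acid transport protein, with 10.9, 11.2 and 10.4 FPKM against 13.1, 11.6 and 14.5 (log2 difference 0.25, limma p = 0.0441, adjusted p = 0.339, exact permutation p = 0.1). Microsomal genes were above 0 in 0 of 3 cases, with a median of −0.14 and Cyp4a14 at 0. Fuel choice and lipid targets were above 0 in 6 of 7 cases with a median of 0.14, and at an unadjusted p under 0.05 1 was higher (Creb3l3) and 1 lower (Pdk4).

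**Figure D2:**
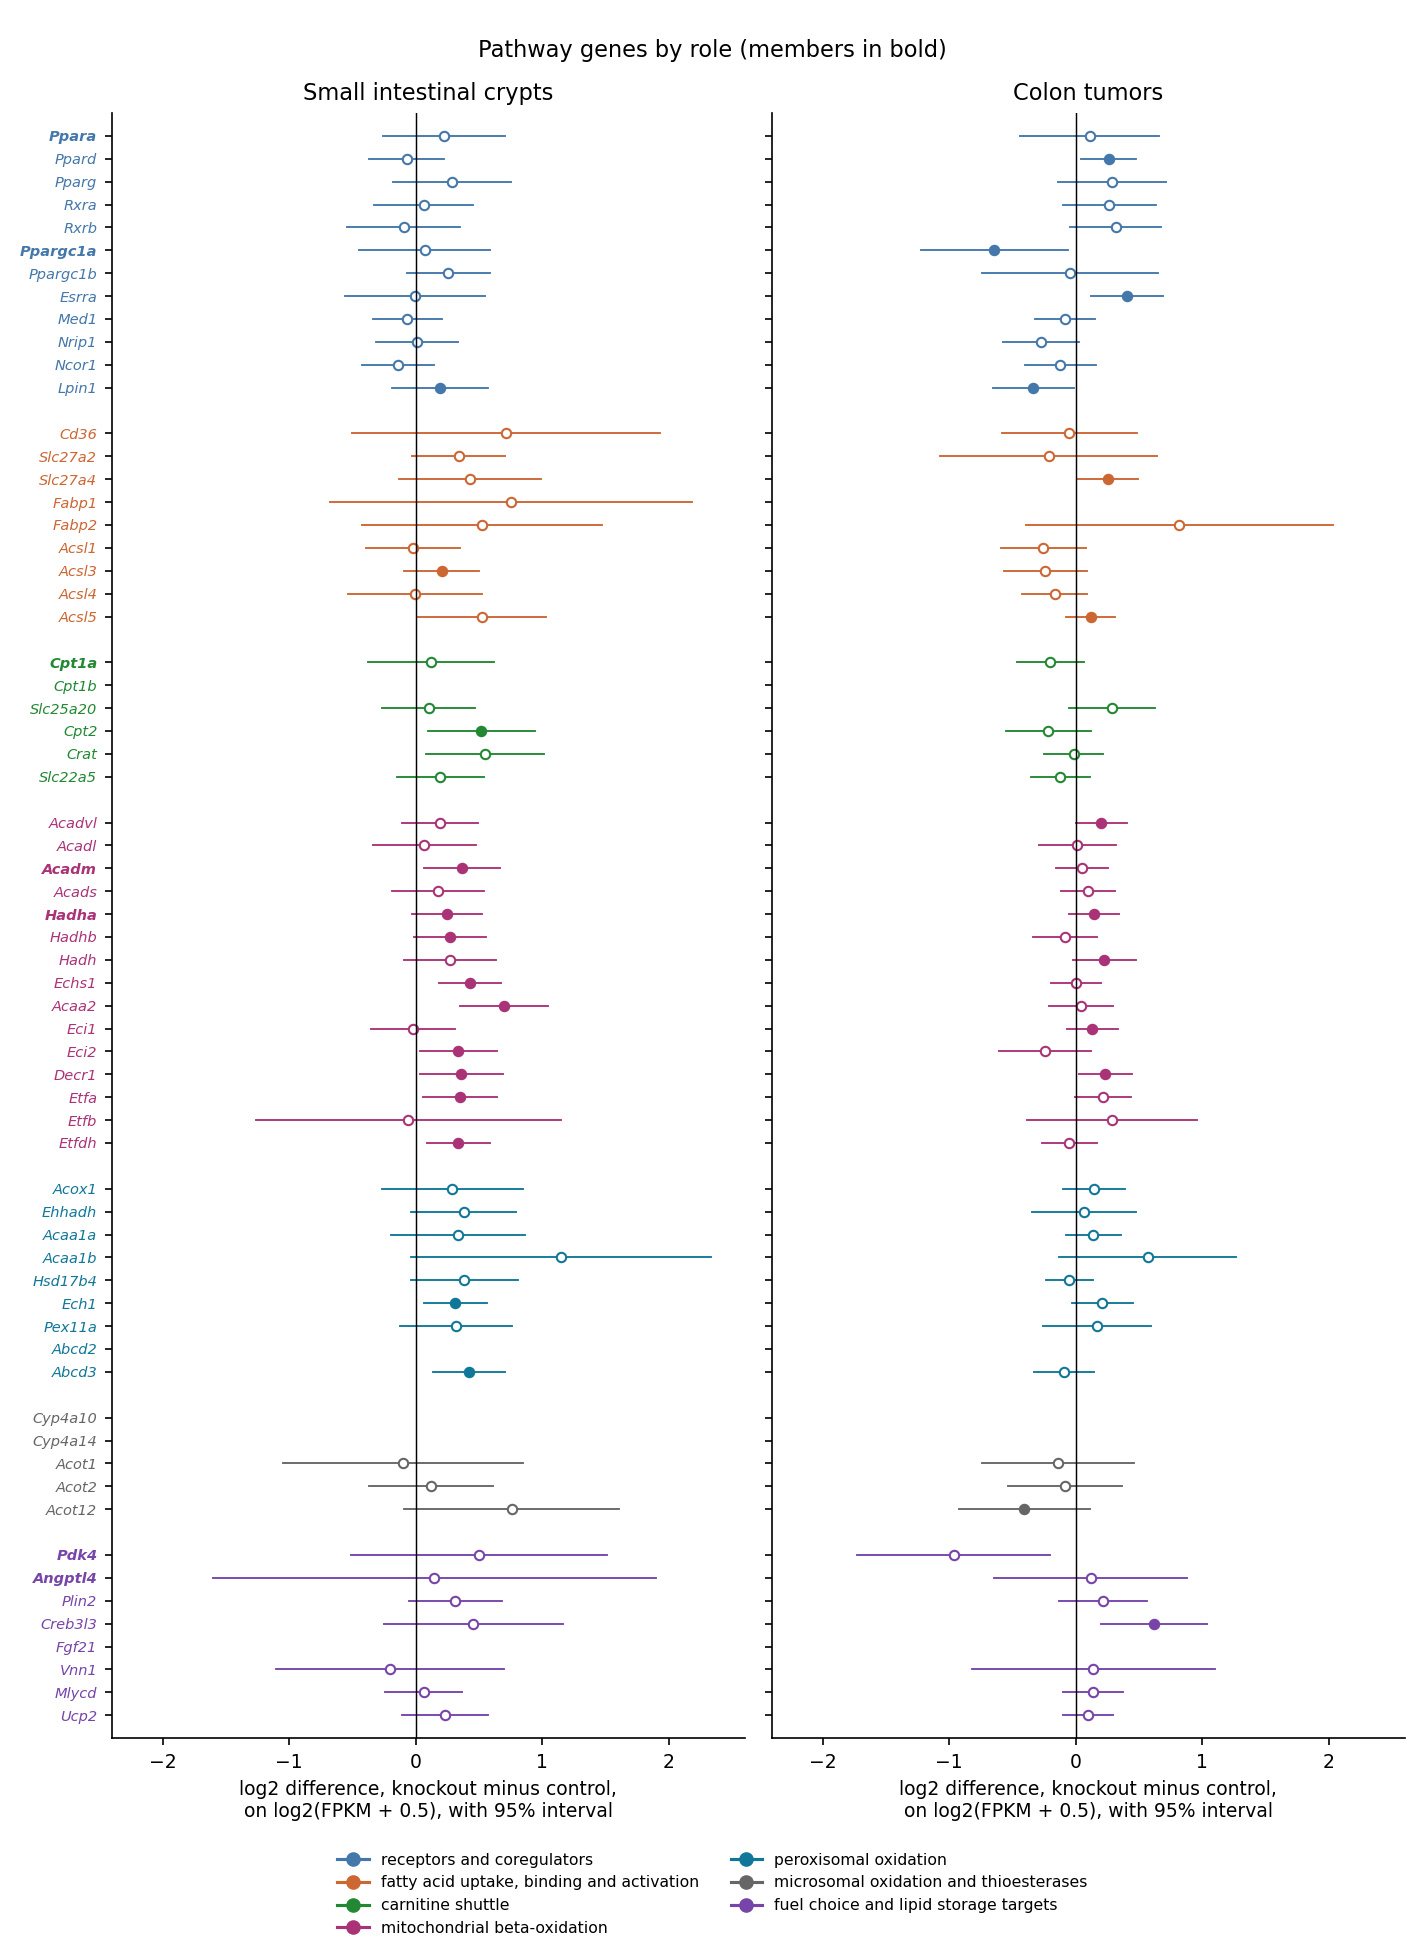
Log2 difference between knockout and control for genes of 7 pathway lists by role, with 95% intervals from limma, in crypts and in tumors. Filled symbols mark groups of 3 libraries that do not overlap, members are in bold, and genes not tested in a tissue are left blank. The tumor median of 0.10 over all pathway lists turns to −0.0145 when libraries are scaled to the same sum of FPKM. That scaling shifts the median of all tumor genes from 0.01 to −0.09, and the pathway median stays 0.08 above it.

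Several cell type marker lists differed between tumor groups in their summed levels. At an unadjusted p under 0.05, counts here and in the next paragraph stand beside 8.46% of all tested tumor genes higher and 6.0% lower. Without overlap, 11.4% of all tested tumor genes were higher. Enterocyte markers were nearly absent (4 of 10 tested, 2 above 0, median 0.14), with sums of 18.8, 19.6 and 18.1 FPKM without the deletion and 17.4, 26.3 and 16.3 with it, led by Slc5a1. Colonocyte markers, 6 of 6 tested and above 0 with a median of 0.78 and 3 (Car1, Guca2a and Krt20) higher at an unadjusted p under 0.05, summed to 214, 164 and 182 FPKM against 302, 489 and 337, led by Car1. Guca2a, a hormone of mature colonocytes, had the smallest p among them, at 43.8, 47.1 and 50.5 FPKM against 91.0, 143 and 86.3 (log2 difference 1.13, limma p = 0.000826, adjusted p = 0.269, exact permutation p = 0.1). Epithelium markers (6 of 6 tested and above 0, median 0.28, none at an unadjusted p under 0.05, 5 apart) summed to 3980, 4063 and 3535 FPKM against 4704, 4552 and 4853, led by Krt8. Fibroblast markers (5 of 5 above 0, median 0.40, with Col1a1, Pdgfra and Dcn higher at an unadjusted p under 0.05) summed to 238, 152 and 141 FPKM against 245, 289 and 244, led by Col1a1. Immune markers ran the other way in sum, with 215, 438 and 311 FPKM against 214, 123 and 200, led by S100a9, with 4 of 7 tested genes above 0 and 2 (S100a8 and S100a9) lower at an unadjusted p under 0.05. The part of these cell types in the member values was not tested.

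Further lists complete the tumor tissue. Smooth muscle markers (6 of 6 tested, 3 above 0, median 0.07, Acta2 higher at an unadjusted p under 0.05) summed to 152, 170 and 130 FPKM against 181, 154 and 175, led by Acta2, and endothelium markers (5 of 5 tested, 4 above 0, median 0.10, Pecam1 and Esam higher at that level) to 33.9, 32.2 and 27.1 against 37.5, 38.0 and 39.0, led by Cdh5. Adipocyte markers stayed at 0.56 to 1.49 FPKM in sum, with 1 of 7 tested and Adipoq and Lep at 0. Liver markers (2 of 4 tested, 0 above 0, median −0.08) summed to 90.1, 35.1 and 48.9 FPKM against 38.1, 66.7 and 57.4, led by Alb, with Serpina1c at 0. Hypoxia response genes were above 0 in 10 of 12 cases with a median of 0.35 and 5 (Slc2a1, Car9, Adm, Ero1l and P4ha1) higher at an unadjusted p under 0.05, and summed to 663, 749 and 585 FPKM against 877, 703 and 953, led by Ldha. Glucocorticoid and fasting response genes were above 0 in 8 of 9 cases with a median of 0.39 and none at an unadjusted p under 0.05, and summed to 239, 278 and 262 FPKM against 319, 294 and 334, led by Ddit4. Their part in the member values was not tested either.

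**Figure D3:**
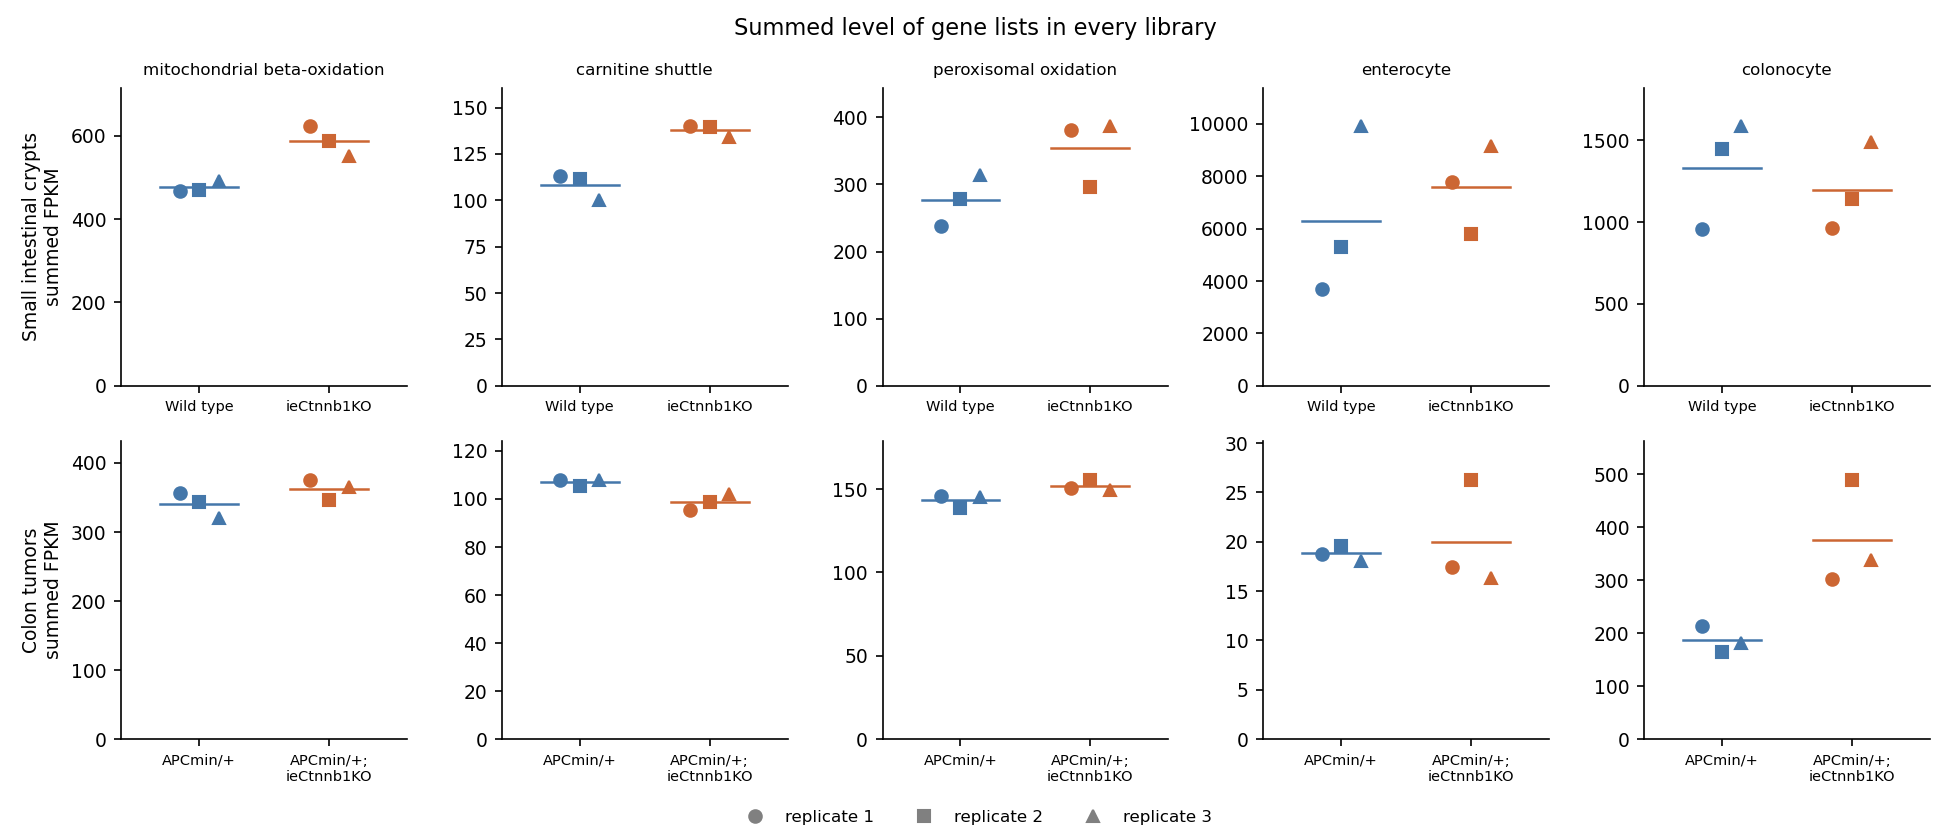
Summed FPKM of 5 gene lists in each library: mitochondrial β-oxidation, carnitine shuttle, peroxisomal oxidation, enterocyte markers and colonocyte markers. Crypts and tumors were normalized separately and are not compared in level.

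The effect of the deletion was then compared between the tissues as the log2 difference in tumors minus that in crypts, in which a scale shared by a table drops out. For all 7 members this value was below 0, that is, the knockout stood lower against its control in tumors than in crypts, with a median of −0.32. Pdk4 had the greatest gap, at −1.47 (SE 0.57, 95% interval −2.72 to −0.22, limma adjusted p = 0.566), and Acadm followed by p-value at −0.32 (SE 0.14, 95% interval −0.64 to −0.00, limma adjusted p = 0.583). The crypt side of the Pdk4 value rests on knockout replicate 3, without which it was −1.0. Ppargc1a had −0.72 (SE 0.35, limma adjusted p = 0.609), Cpt1a −0.33 (adjusted p = 0.753), Ppara −0.12 (adjusted p = 0.929), Hadha −0.11 (adjusted p = 0.842) and Angptl4 −0.03 (adjusted p = 0.994). Cpt1a was −0.14 without knockout crypt replicate 2, and Hadha was −0.03 without wild-type crypt replicate 2. At the same sum of FPKM Cpt1a was −0.58 and Hadha −0.36, beside a median of −0.24 over all genes. Ppara turned to 0.0305 without wild-type crypt replicate 2. Angptl4 turned to 0.36 without wild-type crypt replicate 1, 0.78 without knockout crypt replicate 3, 0.00404 without ApcMin replicate 2, 0.33 without knockout tumor replicate 2 and 0.0476 by voom. Of 13370 genes tested for the difference 0 (0%) passed by limma, 1133 had an unadjusted p under 0.05, and limma with voom also gave 0 at the adjusted threshold. Of all genes 3.67% were lower and 4.80% higher in tumors at an unadjusted p under 0.05, and of the 7 members 2 were lower and 0 higher. Over all tested genes 48.5% were above 0 and the median was −0.01.

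Among 63 pathway genes tested for the difference, 15 (23.8%) were above 0 and the median was −0.15, or −0.14 relative to all genes. At an unadjusted p under 0.05, 14 were lower and 1 (Ppard) higher, beside 3.67% lower and 4.80% higher of all genes. The 14 became 8 without wild-type crypt replicate 1 or without ApcMin replicate 3, and 9 without knockout crypt replicate 1, ApcMin replicate 2 or knockout tumor replicate 3. Scaling to the same sum shifts the median of all genes from −0.01 to −0.24, and relative to that shift the pathway median was −0.15. Among genes that averaged 1 FPKM or more in both tables, those with the smallest p were Echs1 at −0.43 (limma adjusted p = 0.458), Acaa2 at −0.66 (limma adjusted p = 0.458) and Abcd3 at −0.52 (limma adjusted p = 0.476). Next came Etfdh (−0.39), Cpt2 (−0.74), Eci2 (−0.58), Lpin1 (−0.53), Crat (−0.56), Acsl3 (−0.45) and Hadhb (−0.36). Crypts and tumors differ in gut region, in Apc genotype and in preparation, isolated crypts against tumor tissue. These cannot be told apart in the difference between tissues. All crypt libraries were male, and each tumor group held 1 female library. Sex was thus balanced over genotype, so that sex as a covariate cannot move a log2 difference and changes only its p-value. With that covariate, an alternative chosen after seeing the data, 13 pathway genes were lower at an unadjusted p under 0.05. The limma adjusted p was then 0.613 for Pdk4 and 0.630 for Acadm.

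**Figure D4:**
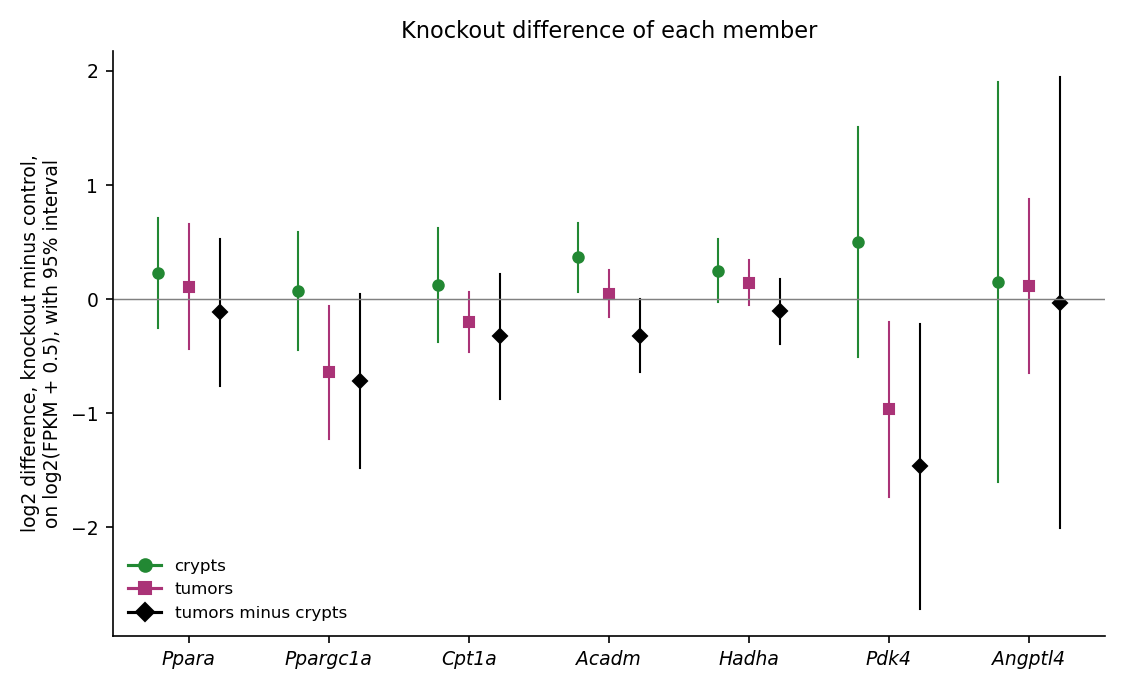
Log2 difference of each member in crypts, in tumors and for tumors minus crypts, with 95% intervals from limma. No value passes an adjusted p under 0.05. The tumor value of Acadm turns below 0 under 3 other scalings, which also move the median of all tumor genes below 0. Acadm stays above that median in each.

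Genes with the highest correlation to each member were listed as a description, with Pearson r over 6 crypt and 6 tumor libraries, as the 2 genes with the highest mean of both among 11563 genes. With so few libraries, a high r follows from this choice alone. Ppara was most like Eps8l3 (0.919 in crypts, 0.938 in tumors) and Pex11a (0.881, 0.863), and Ppargc1a like Osbpl3 (0.903, 0.959) and Cobl (0.944, 0.917). Cpt1a was closest to Cdc40 (0.960, 0.759) and Zfp958 (0.932, 0.766), Acadm to Vdr (0.797, 0.966) and Nadsyn1 (0.959, 0.778), and Hadha to Hdhd2 (0.935, 0.986) and Mrps15 (0.963, 0.954). For Pdk4 the genes were 4933431E20Rik (0.956, 0.926) and Casz1 (0.924, 0.944), and for Angptl4 Rhob (0.960, 0.909) and Ccdc92 (0.840, 0.908). The libraries share tables and genotype groups, and 4933431E20Rik shares exon bases with Eps8l3 on the opposite strand. In crypts Pdk4 (2.15 FPKM) and Angptl4 (14.8 FPKM) were highest in knockout replicate 3, and the part of that library in r was not tested.

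Promoter sequence was examined for what the members share that their selection did not use. Windows of 300 bases, with 250 before and 50 from the transcription start on, were taken from RefSeq on build GRCm38.p6 for 6 of the 7 members and for 54 of 69 pathway genes, and no entry was matched for Angptl4. The core element AGGTCA, bound by PPARs and many other nuclear receptors, was sought on both strands and is in 16.3% of all 32851 windows, in 2 members (Acadm and Cpt1a) and in 13 pathway genes. Its direct repeat with 1 base between copies, the classical PPAR element, is in 0.0396% of windows and in no member. Only exact copies of all 13 bases within these windows were sought. So rare a match cannot show whether the members have or lack PPAR elements. A longer element of estrogen-related receptors that ends in the same core is in 1.28% of windows, the TCF core ATCAAAG in 3.73%, the cyclic AMP element TGACGTCA in 1.79% and the forkhead element GTAAACA in 3.65%, and none of these 4 is in a member. The 4 windows of the mitochondrial enzymes and Pdk4 are printed from 5′ to 3′ along the gene, with capitals for AGGTCA as read on either strand. They lie at chr3:153944594-153944893 (Acadm, minus strand), chr19:3323051-3323350 (Cpt1a, plus strand), chr5:30154931-30155230 (Hadha, minus strand) and chr6:5496229-5496528 (Pdk4, minus strand).
Acadm: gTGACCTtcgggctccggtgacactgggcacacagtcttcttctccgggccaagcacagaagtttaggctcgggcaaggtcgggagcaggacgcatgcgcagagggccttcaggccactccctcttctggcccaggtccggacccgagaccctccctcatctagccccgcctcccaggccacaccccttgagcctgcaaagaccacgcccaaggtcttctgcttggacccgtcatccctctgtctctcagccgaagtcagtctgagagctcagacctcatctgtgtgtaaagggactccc
Cpt1a: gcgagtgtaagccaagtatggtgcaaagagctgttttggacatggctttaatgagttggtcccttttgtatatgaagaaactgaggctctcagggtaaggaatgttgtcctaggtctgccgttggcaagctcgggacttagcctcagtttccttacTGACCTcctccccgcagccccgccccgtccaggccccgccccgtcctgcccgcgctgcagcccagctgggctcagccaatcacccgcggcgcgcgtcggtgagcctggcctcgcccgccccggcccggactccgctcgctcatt
Hadha: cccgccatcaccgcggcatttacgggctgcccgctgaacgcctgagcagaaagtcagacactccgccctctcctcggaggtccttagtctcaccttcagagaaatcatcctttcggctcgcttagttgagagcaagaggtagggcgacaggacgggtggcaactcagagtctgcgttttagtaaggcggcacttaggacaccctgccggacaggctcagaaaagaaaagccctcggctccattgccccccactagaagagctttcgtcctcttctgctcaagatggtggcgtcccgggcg
Pdk4: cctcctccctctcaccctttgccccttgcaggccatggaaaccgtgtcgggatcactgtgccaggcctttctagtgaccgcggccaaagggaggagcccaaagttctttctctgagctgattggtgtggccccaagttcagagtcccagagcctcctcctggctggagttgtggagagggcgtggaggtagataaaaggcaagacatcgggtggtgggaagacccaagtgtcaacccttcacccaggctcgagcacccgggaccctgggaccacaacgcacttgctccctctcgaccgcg
In Acadm the match starts at −249 and in Cpt1a at −94 relative to the start, both on the opposite strand. Hadha and Hadhb are transcribed away from each other from starts 273 bases apart, so that their windows share 228 bases. A match describes sequence only, and binding was not measured in these data.

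Few bases of the members are shared with other genes. Only Hadha shares exon bases with another gene, 75 of 8730 with Garem2 on the opposite strand, which averaged 0.0111 FPKM in crypts and 0.0536 in tumors. Of the Pdk4 transcript, 101 of 3484 bases match another gene, Cflar, and the effect of this match on the Pdk4 values was not tested. Among pathway genes, Oxct1 shares 12.6% of its exon bases with BC037032, and 57.1% of the Acaa1b transcript matches other genes, so that Acaa1b is less certain than the rest.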

How the data were processed

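RNA-seq of 12 mouse libraries was analysed, 3 wild-type and 3 knockout libraries of small intestine crypts and 3 ApcMin and 3 knockout libraries of colon tumors. Per the labels, the authors trimmed reads with cutadapt, aligned them to mm10 with HISAT2 and named Cufflinks 2.2.1 and DESeq2, and deposited FPKM values (fragments scaled to gene length and to 1 factor per library) for each gene and library, in 1 table per tissue. The methods of the paper name featureCounts for counting reads on genes, which differs from the labels. Which of these tools gave the FPKM, the gene annotation and the use of strand are not given in the sources used here. The deposited tables also give a gene length for each gene, per the file headers (gene_length). FPKM times gene length, divided by the smallest step found in each library, came within 0.05 of a whole number for 100% of values above 0, and these fragments summed to 14457896 to 16156712. When each library was divided, gene by gene, by the geometric mean of its table, the median over genes was equal in all 6 libraries (1.01 in crypts, 1.00454 in tumors), so the deposited values are already centred on a median ratio and not on total fragments, which holds the median difference of all genes near 0. The age of the tumor mice, the strain and the way the deletion was made come from the paper, and the groups from the sample labels.

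Within each table, genes that averaged 0.5 FPKM or more were tested on log2(FPKM + 0.5) by limma 3.58.1 in R 4.3.3, with a variance trend and p-values adjusted over all tested genes after Benjamini and Hochberg at a threshold of 0.05. Single genes were also tested by an exact permutation test over libraries, whose smallest p is 0.1 for 3 against 3. Each tissue was fitted within its own table, and the difference between tissues was a contrast of 4 group means over all 12 libraries. The design gives these tests no covariates. The members and all lists were chosen with earlier results of these data known. Named genes were the 7 members, Ctnnb1 and the 10 pathway genes with the smallest unadjusted p in each comparison at a mean FPKM from 1 up. From the cell type and response lists they were the most abundant gene and the genes at 0. The gene with the smallest p was named for some of these lists only. Cyp4a14, Cyp4a10, Cpt1b, Acsl5, Ddx3y, Xist and single genes behind small counts of a list were named after their values were seen. Likeness was the mean of Pearson r over 6 crypt and 6 tumor libraries, and for each member the 2 highest genes were named.

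The pathway lists were receptors and coregulators, fatty acid uptake, binding and activation, carnitine shuttle, mitochondrial β-oxidation, peroxisomal oxidation, microsomal oxidation, and fuel choice and lipid targets, and a ketone body list that is given only within the pathway totals. Cell type lists covered epithelium, enterocyte, colonocyte, adipocyte, smooth muscle, fibroblast, endothelium, immune and liver markers, and response lists covered hypoxia and glucocorticoids with fasting. Promoter windows came from RefSeq on build GRCm38.p6. Gene coordinates are those of the deposited tables, on GRCm38. Alternatives were pseudocounts of 0.1 and 1, no filter and a filter of 1, 3 scalings (the same sum of FPKM, without the 50 highest genes, quantile normalization), voom on recovered fragments, the replicate number as a block, a fit without the variance trend, robust moderation of variances, a restriction to protein-coding genes, and leaving out each library in turn. Sex as a covariate, read from Xist, was added after seeing the data.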

Additional observations from a re-analysis of the deposited data

Results flagged for a closer look

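Lpin1, a phosphatidate phosphatase and coactivator of the pathway, had knockout values apart from control in opposite directions in the 2 tissues. In crypts it measured 1.42, 1.31 and 1.04 FPKM in wild type and 1.51, 1.43 and 1.56 in knockout, and in tumors 2.43, 2.41 and 2.12 without the deletion and 1.87, 1.82 and 1.53 with it. The crypt groups were apart by a narrow margin, 1.42 against 1.43 FPKM, at a log2 difference of 0.19 (limma p = 0.270, adjusted p = 0.907, exact permutation p = 0.1). The log2 difference in tumors minus that in crypts was −0.53 (limma adjusted p = 0.555 over all genes tested for the difference), so that the difference did not pass the adjusted threshold.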

How the results depend on the processing

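For single genes, 994 alternative values were computed over 48 gene and comparison pairs: 978 kept their sign, 16 changed it and 0 had an adjusted p under 0.05 (lowest 0.145). Several alternatives keep the log2 difference by construction: the filters, no variance trend, robust moderation, protein-coding genes, the replicate block and sex. Their values are among the 978 and could not change sign. Of the 16 changes, 4 came without a library left out. With 3 libraries a group and 14457896 to 16156712 fragments, differences within the spread between libraries could not be called. The cause of the changes below was not tested.

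Genes that passed an adjusted p under 0.05, 0 as reported in each comparison, numbered 1 in tumors without a variance trend and, for tumors minus crypts, 1 with a pseudocount of 0.1 and 1 with the replicate block. In crypts the count ran from 0 to 3 when libraries were left out (3 without wild-type replicate 3). The replicate block otherwise gave 0 in both tissues. Replicate numbers do not pair the samples: correlations between control and knockout of the same number were −0.047, −0.122 and 0.037 in crypts and 0.054, −0.090 and 0.053 in tumors. With sex as a covariate, added after seeing the data, 0 genes passed in tumors and 0 for tumors minus crypts.

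Pathway genes higher in crypts at an unadjusted p under 0.05, 13 as reported, were 25 at the same sum of FPKM, 6 without the 50 highest genes, 8 after quantile normalization, and 5 to 24 when libraries were left out. In tumors, those higher were 2 at the same sum, 2 without the 50 highest genes and 3 to 13 over left-out libraries, and those lower were 6, 6, 7 after quantile normalization and 0 to 4. For tumors minus crypts, those lower were 14 as reported and 8 to 16 over left-out libraries. That count was 21 at the same sum, 16 without the 50 highest genes and 12 after quantile normalization. All these counts are against 0. Those over all genes moved too. At the same sum they went from 494 to 734 higher in crypts and from 491 to 1340 lower for tumors minus crypts. In tumors they went from 1417 to 731 higher and from 1004 to 1785 lower. The pathway median was 0.42 in crypts, −0.0145 in tumors and −0.39 for tumors minus crypts at the same sum. In tumors it was −0.0153 without the 50 highest genes, 0.0159 after quantile normalization and 0.0533 to 0.13 over left-out libraries. Relative to all genes it was 0.0757 in tumors at the same sum, 0.0758 without the 50 highest genes and 0.0312 after quantile normalization. Over left-out libraries this was 0.0440 to 0.12 in tumors and −0.22 to −0.13 for tumors minus crypts.

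Among members, Acadm in tumors was −0.0602 at the same sum, −0.0611 without the 50 highest genes and −0.0137 after quantile normalization. The median of all tumor genes under these scalings was −0.0903, −0.0911 and −0.0153. Angptl4 for tumors minus crypts was 0.0476 by voom. Over left-out libraries, log2 differences in crypts ran from −0.11 to 0.29 for Ppargc1a, −0.0634 to 0.31 for Cpt1a and −0.66 to 0.83 for Angptl4. In tumors they ran from −0.0227 to 0.22 for Ppara and −0.18 to 0.48 for Angptl4, and for tumors minus crypts from −0.32 to 0.0305 for Ppara and −0.71 to 0.78 for Angptl4.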
